A study of Octopus bimaculoides with 16 samples.

Results

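A set of 158 genes was high in both the eye and the statocyst of Octopus bimaculoides, the California two-spot octopus, and low in 5 other tissues. The members were chosen from 15842 measured genes by their levels in CPM, the reads of a gene per 1000000 reads of its library. Each had at least 10 CPM in eye and in statocyst, and both of these stood at least 4-fold above optic lobe, olfactory organ, mantle skin, sucker rim cells and whole sucker cup. Eye and statocyst also had to lie less than 4-fold apart. Folds were taken on CPM + 1. At least 10 CPM in both organs, less than 4-fold apart, was found for 6469 genes, of which the 158 members were 2.44%, and they made up 0.997% of all measured genes. The same libraries chose the members, so their high level in eye and statocyst and their low level elsewhere are a description and not a finding.

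The study sequenced bulk messenger RNA of hand-dissected sensory organs and of tissues for comparison. Eye, statocyst, optic lobe (a part of the brain), olfactory organ, mantle skin and dissociated cells of sucker rims had 1 library each, and whole sucker cups of the arm named R1 had 2 libraries, automated and manual. All are of the same species. The labels give no treatment, animal, age or sex, and do not say what automated and manual mean. With 1 library per tissue, no difference between tissues can be set against variation between animals, and no test was made.

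The cephalopod eye is a camera-type eye with a lens and a retina of microvillar photoreceptors, whose fibres run to the optic lobe. The statocyst is the organ of balance: hair cells in a fluid-filled sac sense gravity through a mineral statolith and sense rotation of the body. Both organs form in the embryo by the infolding of surface ectoderm of the head. Homeobox genes of the OTX family encode DNA-binding proteins that act in head, brain and eye development across animals.

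The eye library held 12241705 reads and the statocyst library 15167497, within a range over all libraries of 4782744 (mantle skin) to 36916825 (rim cells). Each read counted for 0.0817 CPM in eye, 0.0659 CPM in statocyst and 0.186 CPM in optic lobe. A count of 0 allows up to 3 reads, which is 0.558 CPM in optic lobe, 0.627 CPM in mantle skin and 0.0813 CPM in rim cells. Intervals given below are 95% intervals of counting error only. In bulk tissue, fewer cells of a type and less RNA per cell cannot be told apart. The reference gene table used here (assembly ASM119413v2) lists 149 of the 158 members and 14305 of all measured genes, but gives a functional name to 1 member, OTX. The other members are given by their identifiers, with no role, and the tissue labels could not be checked against marker genes.

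OTX (LOC106873941) was a member. It had 1155 reads in eye (94.3 CPM, 89.0 to 99.95) and 454 reads in statocyst (29.9 CPM, 27.2 to 32.8). Among the other tissues it had 44 reads in olfactory organ (3.08 CPM), 53 in rim cells (1.44 CPM), 3 in optic lobe (0.558 CPM) and 1 in mantle skin (0.209 CPM). The whole sucker libraries had 4 reads in the automated one (0.338 CPM) and 9 in the manual one (1.09 CPM). Eye was thus the highest library and statocyst the next, and their intervals overlapped neither each other nor that of any further library. Below them, olfactory organ lay above rim cells, with intervals of 2.24 to 4.14 CPM and 1.08 to 1.88 CPM, while the intervals of optic lobe, mantle skin, rim cells and the manual whole sucker library overlapped.

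The ratio of OTX in statocyst to olfactory organ, the closest pair, was 9.70 (7.11 to 13.5). The ratio of eye to olfactory organ was 30.6 (22.6 to 42.3), and that of eye to optic lobe, the brain region its fibres reach, was 169 (57.7 to 821). On the scale of the rule, the lower of eye and statocyst stood 2.92 log2 units above the highest other tissue, which placed OTX 74th of 158 members. By eye over statocyst OTX was 7th of 158, with a ratio of 3.15 (2.83 to 3.52) and a log2 ratio of 1.62. Scaled by median-of-ratios size factors in place of library totals, this log2 ratio became 2.002 and OTX no longer passed the limit between eye and statocyst.

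**Figure D1:**
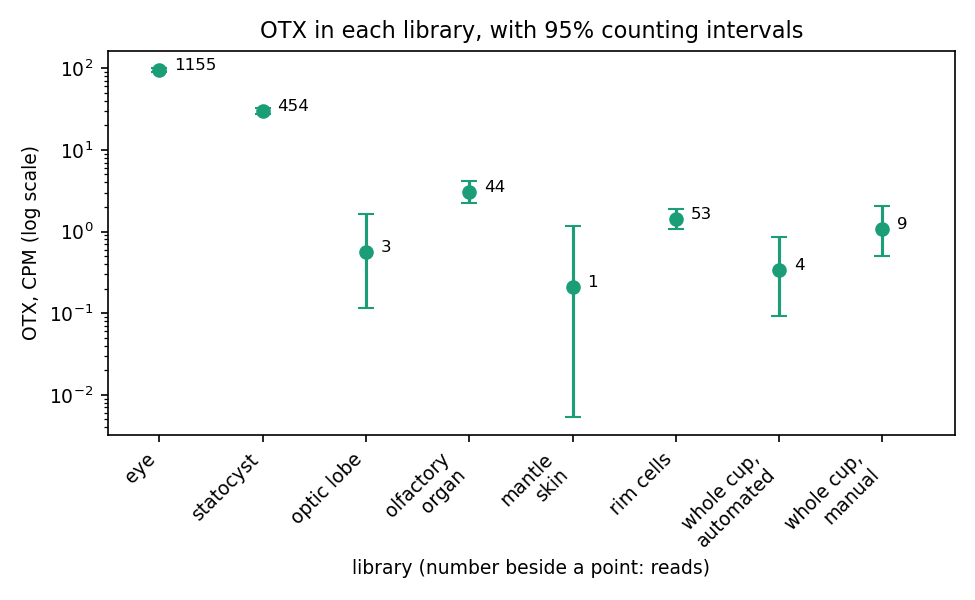
OTX level in each of the 8 libraries in CPM on a log axis, with bars for the 95% counting interval and the number of reads beside each point. Eye (1155 reads) and statocyst (454 reads) stand above the other 6 libraries, which have between 1 and 53 reads.

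Among the members, the margin over the other tissues varied widely. The median log2 ratio of the lower of eye and statocyst to the highest other tissue was 2.83. A margin of at least 8-fold was held by 65 members, 16-fold by 22, 32-fold by 7 and 64-fold by 3. At the threshold, LOC106867777 was just inside at 2.004 log2 units, with LOC106870788 at 2.01 and LOC106874842 at 2.01. Just outside were LOC106870064 at 1.9997, LOC106875473 at 1.99 and LOC106883587 at 1.99. OTX was thus near the middle of the members by this margin.

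LOC106881857 had the widest margin. It had 140.0 CPM in eye and 262 CPM in statocyst, with 5 reads in olfactory organ, 1 read each in optic lobe and mantle skin, and none in the rim library or in either whole sucker library. Its ratio of eye to olfactory organ, without pseudocount, was 399 (171 to 1232). Eye and statocyst held nearly all of its reads, and the rim library, the deepest, held none.

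LOC106873461 had 655 CPM in eye and 558 CPM in statocyst, with 7.12 CPM in rim cells, 0.836 in mantle skin, 1.89 in olfactory organ, 2.87 and 3.98 in the whole sucker libraries and no read in optic lobe. LOC106869158 had 189.8 CPM in eye and 299 CPM in statocyst, with 1.96 CPM in olfactory organ, 0.135 in rim cells, 1.18 and 1.21 in the whole sucker libraries and no read in optic lobe or mantle skin. These genes and LOC106881857 are the 3 members past 64-fold, and they differ in the tissue that comes next: rim cells for LOC106873461, olfactory organ for the other two.

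LOC106883685 followed with 476 CPM in eye and 842 CPM in statocyst, against 6.83 CPM in rim cells and 6.70 CPM in optic lobe. LOC106878662 had 112 CPM in eye and 80.4 CPM in statocyst, against at most 0.701 CPM in any other library. LOC106878006 had 116 CPM in eye and 187 CPM in statocyst, against 2.79 CPM in rim cells. For LOC106867486 the values were 93.5 CPM in eye and 168 CPM in statocyst, against 2.09 CPM in rim cells. LOC106883685 had 3.55 CPM or more in all 8 libraries, while each of these 3 had under 1 CPM in optic lobe and mantle skin.

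The level left in the other tissues set apart a quiet and a broad end of the set. For 16 members all 5 other tissues lay under 1 CPM. These had median levels of 18.5 CPM in eye and 18.7 CPM in statocyst, with a highest value of 262 CPM, in statocyst for LOC106881857. At the broad end, 11 members had at least 10 CPM in all 5 other tissues, with medians of 372 CPM in eye and 362 CPM in statocyst and a median log2 ratio of 2.41. LOC106868390 was such a gene, with 1291 CPM in eye and 1777 CPM in statocyst, against 245 CPM in rim cells, 185 in olfactory organ, 168 and 154 in the whole sucker libraries, 144 in optic lobe and 132 in mantle skin. LOC106877900 had 703 CPM in eye and 764 CPM in statocyst, against 145 CPM in rim cells and 32.9 in optic lobe. LOC106868368 had 961 CPM in eye and 689 CPM in statocyst, against 109.9 CPM in rim cells and 55.6 CPM in optic lobe. The rule sets a lower limit on the levels at this end, since eye and statocyst must be 4-fold above the highest other tissue. The lowest levels among these 11 were 139 CPM in eye and 137 CPM in statocyst. Neither the count of 16 nor that of 11 was made over the 6469 genes at 10 CPM in both organs. Nothing is therefore read from the size of either end.

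All members together took 2.90% of the eye reads (2.890 to 2.909%) and 3.46% of the statocyst reads (3.449 to 3.467%). In the other libraries they took 0.225% and 0.227% in whole sucker cup, 0.191% in rim cells, 0.166% in skin of the mantle, 0.157% in olfactory organ and 0.0739% in optic lobe. The median member had 76.7 CPM in eye and 86.4 CPM in statocyst. Optic lobe had the lowest median, 0.558 CPM, and rim cells the highest of the other tissues, 4.09 CPM. Read shares grow with transcript length, so they do not rank genes by the number of transcripts.

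A single gene, LOC106872007, held 15.1% of the members' reads in eye and 10.4% in statocyst. It had 4371 CPM in eye and 3608 CPM in statocyst, against 823 CPM in the automated whole sucker library, 791 in the manual one, 542 in mantle skin, 206 in olfactory organ, 41.5 in rim cells and 4.84 in optic lobe. The ratio of statocyst to whole sucker cup was 4.45 (4.38 to 4.53), close to the threshold. This gene was therefore far from silent in skin and sucker cup, and low in rim cells and optic lobe. Without it the shares were 2.46% in eye and 3.10% in statocyst.

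**Figure D2:**
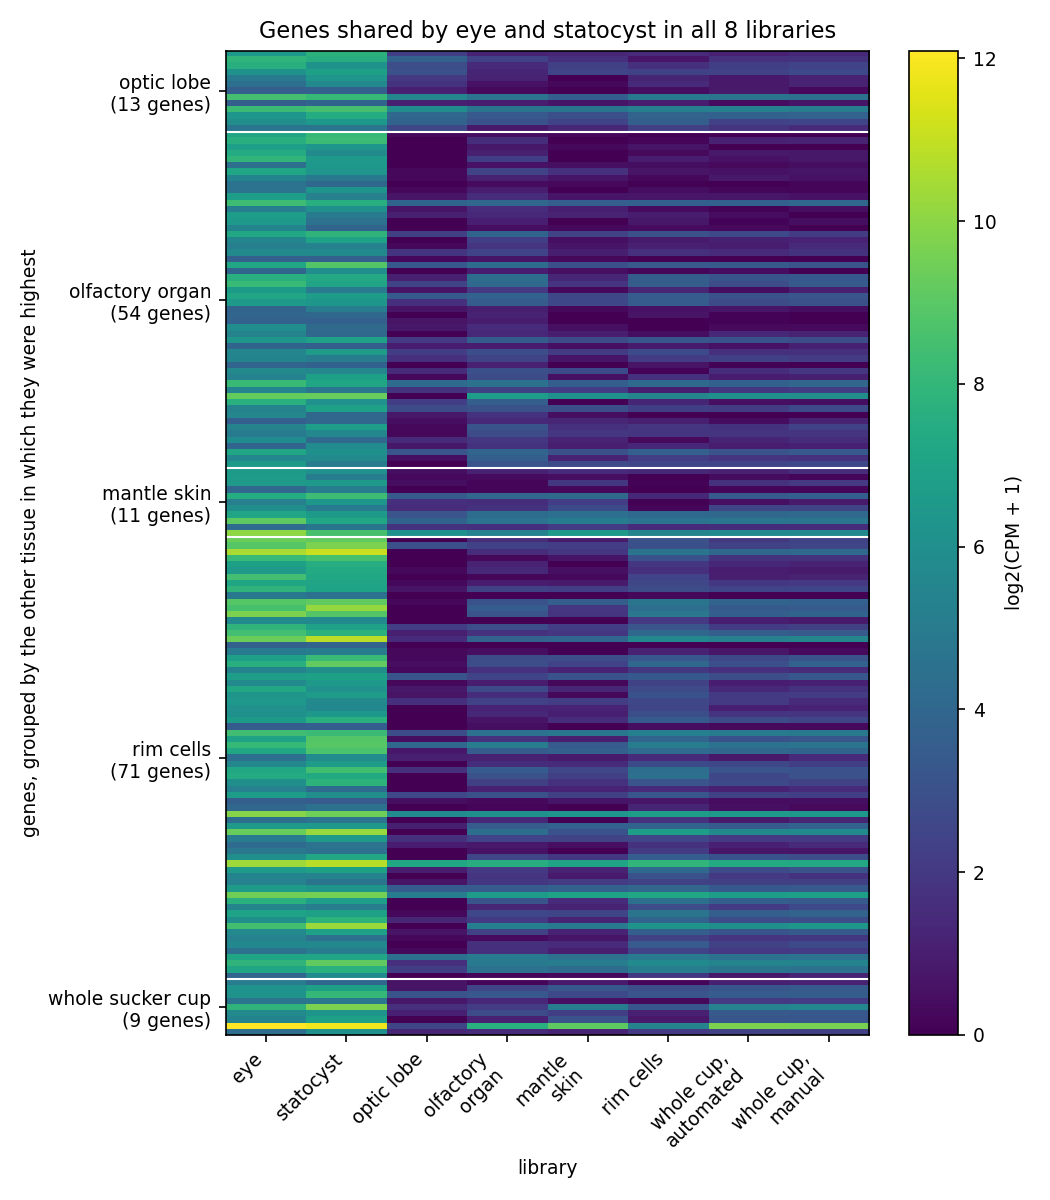
Levels of the 158 genes (rows) in the 8 libraries (columns) as log2(CPM + 1), with rows grouped by the other tissue in which each gene was highest and sorted by their margin. The eye and statocyst columns are bright by the choice of genes, and the optic lobe column is the darkest, with no read for 46 genes.

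Many members had no read in optic lobe. No optic lobe read was found for 46 of the 158 members (29.1%), against 106 of the 6469 genes at 10 CPM in both organs (1.64%). Of those 6469 genes, 870 (13.4%) stood at least 4-fold above optic lobe in both organs, and among the 712 of these that were not members 60 had no optic lobe read (8.43%). The rule holds optic lobe low, so this is a description. Mantle skin, held low by the same rule, had no read for 20 members. Genes with a count of 0 for skin were not counted over the 6469 genes, so nothing is read from 20 against 46. Of the 8 libraries these were the shallowest, mantle skin at 4782744 reads and optic lobe at 5373482. The part of depth in the counts of 0 was not tested. Some of the 46 were prominent elsewhere.

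LOC106876926 had no optic lobe read and 1491 CPM in eye and 2245 CPM in statocyst, against 24.1 CPM in rim cells, 15.8 and 16.6 in the whole sucker libraries, 2.72 in mantle skin and 1.89 in olfactory organ. LOC106884495 likewise had no optic lobe read, with 631 CPM in eye and 1195 CPM in statocyst, against 106 CPM in rim cells, 52.3 in the automated and 52.8 in the manual whole sucker library. For LOC106872335 the values were 340 CPM in eye and 1240 CPM in statocyst, against 75.03 CPM in rim cells, 36.2 in olfactory organ and none in optic lobe. These genes were detected in the sucker samples and in olfactory organ, with no read in the brain sample. In all, 10 of the 46 reached 10 CPM in some other tissue, and all 10 did so in rim cells. Rim cells were not the highest other tissue for each of them: LOC106877008 had 107.5 CPM in olfactory organ and 44.0 CPM in rim cells. Over all 158 members, 55 reached 10 CPM in some other tissue, and 46 did so in rim cells. No such count was made over the 106 genes without an optic lobe read, so nothing is read from it. LOC106867522 was among the genes without an optic lobe read too, with 382 CPM in eye and 1146 CPM in statocyst, against 20.4 CPM in rim cells.

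The highest of the other tissues was rim cells for 71 members (44.9%), olfactory organ for 54 (34.2%), optic lobe for 13 (8.23%), skin of the mantle for 11 (6.96%) and the whole cup for 9 (5.70%). Over the 6469 genes at 10 CPM in both organs, these shares were 22.9% for rim cells, 34.3% for olfactory organ, 25.3% for optic lobe, 14.7% for mantle skin and 2.64% for whole sucker cup. The rule used these same 5 levels and asked nothing of them in the other genes, so these shares are a description and nothing is read from their difference. The members with rim cells next included 29 of the 46 without an optic lobe read, and those with olfactory organ next included 15. Neither count was made over the 106 of the 6469 genes without an optic lobe read, so nothing is read from them.

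Taken 1 at a time, the other tissues removed different numbers of genes. Both organs stood at least 4-fold above rim cells for 359 of the 6469 genes (5.55%), above whole sucker cup for 394 (6.09%), above olfactory organ for 399 (6.17%), above mantle skin for 482 (7.45%) and above optic lobe for 870 (13.4%). Failing against optic lobe and no other tissue were 52 further genes, against 34 for rim cells, 19 for olfactory organ, 7 for mantle skin and 3 for whole sucker cup. So the set would have 210 genes if optic lobe were not asked for, although optic lobe was the tissue that the most genes passed singly.

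Between rim cells and whole sucker cup, 111 members were higher in rim cells (70.3%), against 67.5% of the 6469 genes, so this share was near that of genes in general. Rim cells stood 4-fold or more below the whole cup for 6 of the 158 members, against 38 of the 6469 genes (0.587%). None of the members was at least 4-fold higher in rim cells, against 25 of the 6469 (0.386%). The rule holds rim cells and whole cup low in the members, and the pseudocount holds down ratios at low levels. Nothing is therefore read from these counts. The 6 were named after their values were seen: LOC106872007, LOC106878200, LOC106871778, LOC106880801, LOC106882467 and LOC106880701. In rim cells LOC106880801 had 8.56 CPM, while the automated whole sucker library had 40.5 CPM, the manual one 46.7 CPM and mantle skin 33.5 CPM. The rim sample is labelled as dissociated cells and the cups as whole sucker cup, with no word on dissociation of the cups. The part of preparation in these differences was not tested. Both whole sucker libraries gave like values for the 34 members at 10 CPM or more in either, which differed by at most 1.80-fold on CPM + 1. Over all members the largest difference was 0.85 log2 units, for LOC106868402. The pseudocount holds down differences at lower levels, such as 0.338 and 1.09 CPM for OTX, so likeness there is not shown.

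Eye and statocyst were then set against each other within the set. Of the 158 members, 70 were higher in eye and 88 higher in statocyst, with a median log2 ratio of eye to statocyst of -0.12, against -0.41 for the 6469 genes. Scaled by median-of-ratios size factors, which move all log2 ratios of eye to statocyst by 0.39, the split became 94 higher in eye and 64 higher in statocyst, so the direction of the balance depends on the scaling. On library totals, the counting interval of the ratio lay above 1 for 60 members, below 1 for 74, and held 1 for 24. No such count was made with size factors or over the 6469 genes, so nothing is read from it. At least 2-fold apart were 64 members (40.5%), 25 higher in eye and 39 higher in statocyst, against 25% of the 6469 genes. With size factors 58 of the 158 were at least 2-fold apart, 37 higher in eye and 21 higher in statocyst, so this split too turned round with the scaling. The 6469 genes were not counted with size factors, so the comparison with them holds for library totals only.

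The members that leaned most to the eye were LOC106880339, LOC106878776 and LOC106880177. LOC106880339 had 89.7 CPM in eye and 21.8 CPM in statocyst, a ratio of 4.12 (3.64 to 4.68) without pseudocount. LOC106878776 had 554 CPM in eye and 148 CPM in statocyst, a ratio of 3.74 (3.57 to 3.93). LOC106880177 had 60.2 CPM in eye and 16.9 CPM in statocyst, a ratio of 3.55 (3.08 to 4.11). OTX, at 3.15, belongs to this side of the set.

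Leaning most to the statocyst were LOC106873694, LOC106871518 and LOC106874715. LOC106873694 had 21.4 CPM in eye and 87.6 CPM in statocyst, a ratio of 0.244 (0.213 to 0.279). LOC106871518 had 14.5 CPM in eye and 59.9 CPM in statocyst, a ratio of 0.243 (0.205 to 0.285). LOC106874715 had 14.2 CPM in eye and 55.7 CPM in statocyst, a ratio of 0.255 (0.215 to 0.301). Among members with higher levels, LOC106872119 leaned the same way, with 669 CPM in eye and 1856 CPM in statocyst, while LOC106878848 leaned to the eye, with 1045 CPM in eye and 377 CPM in statocyst. Beyond the limit, 35 further genes passed against all 5 other tissues but were at least 4-fold apart, 13 higher in eye and 22 higher in statocyst. Together with the members these are 193 of the 7031 genes at 10 CPM in both organs (2.74%). Taken singly, eye passed against the 5 tissues for 489 of 8121 genes (6.02%) and statocyst for 1031 of 8533 (12.1%). These comparisons share all 5 tissues they are set against.

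**Figure D3:**
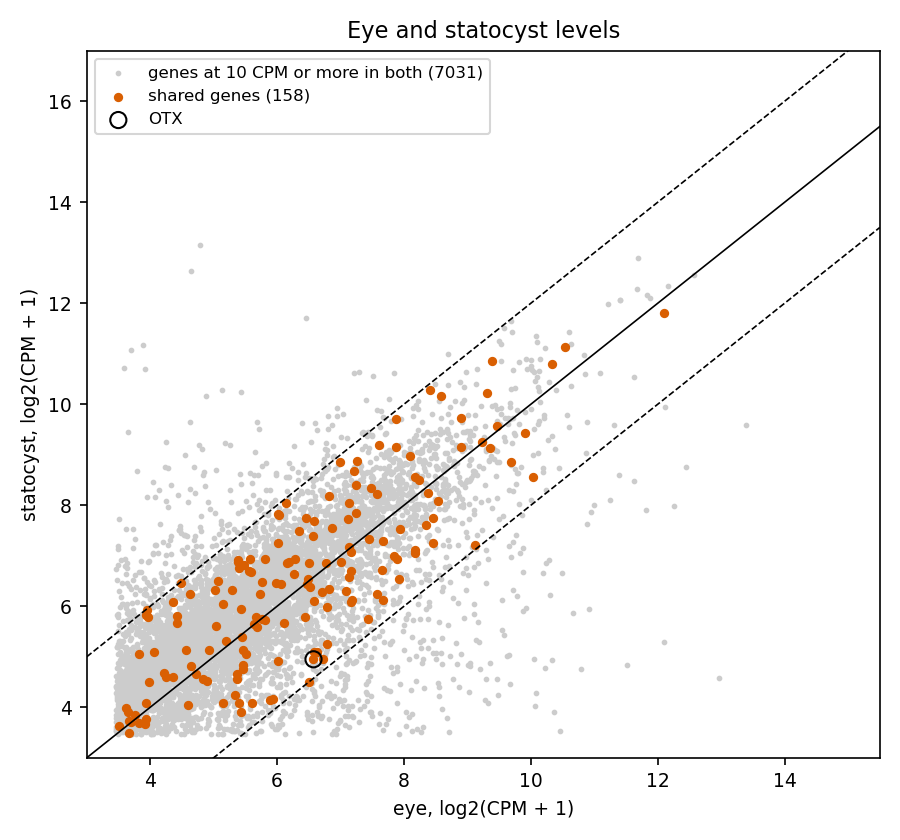
Statocyst level against eye level, both as log2(CPM + 1), for the 7031 genes with at least 10 CPM in both (grey) and the 158 shared genes (orange), with OTX circled. The solid line marks equal levels and the dashed lines 4-fold differences, between which the shared genes lie by choice, 70 on the eye side and 88 on the statocyst side.

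Position on the chromosomes was not used to choose the members. In the order of measured genes in assembly ASM119413v2, 149 members had a place among 13929 genes. No source used here names the build of the deposited values, so only neighbourhood is described. Members held 20 of the 298 places next to a member (6.71%), while members made up 1.07% of the placed genes. They formed 8 runs of adjacent members, 6 of 2 genes and 2 of 3 genes, holding 18 members in all. Neighbours that were not members had a median log2 ratio of the lower of eye and statocyst to the highest other tissue of -0.82 (253 genes with a read), against -0.85 for all placed non-members (12909 genes). At 2-fold or more on this ratio were 11 of the 253 neighbours (4.35%), against 372 of the 12909 placed non-members (2.88%). Whether adjacent genes are copies that share reads, or parts of 1 gene split in the annotation, was not tested, as no sequences were used.

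Adjacent members had similar profiles. In all 10 adjacent pairs both genes had the same highest other tissue, against 32.9% of the 12403 possible pairs of members. The log2 ratio of eye to statocyst differed between the genes of a pair by a median of 0.29, against 1.03 over all pairs of members, and by under 0.5 in 7 of the 10. The 10 pairs come from 8 runs, and the middle gene of a run of 3 counts in 2 pairs. Likeness of adjacent genes outside the set was not measured, so it is not shown to be particular to the members. Rim cells came next in 5 runs and olfactory organ in 3.

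The 3 runs with olfactory organ next leaned to the eye. LOC106882733 had 109 CPM in eye and 37.3 CPM in statocyst, against 2.03 CPM in olfactory organ, and its neighbour LOC106882729 had 105 CPM in eye and 30.3 CPM in statocyst, against 1.61 CPM in olfactory organ. LOC106880177, named above, adjoined LOC106880178, which had 47.9 CPM in eye and 16.1 CPM in statocyst, against 2.45 CPM in olfactory organ. The pair LOC106867625 and LOC106867626 had 43.0 and 23.1 CPM in eye and 27.7 and 15.6 CPM in statocyst, against 1.19 and 0.280 CPM in olfactory organ. In each of these pairs the lean to the eye was of like size in both genes.

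In 1 run of 3 genes with rim cells next, LOC106868674, LOC106868675 and LOC106868676, eye and statocyst were nearly equal by library totals. Size factors move these log2 ratios by 0.39 towards the eye, so the near equality depends on the scaling. LOC106868675 had 175 CPM in eye and 159.7 CPM in statocyst, against 21.4 CPM in rim cells, and its neighbours had 27.6 and 42.8 CPM in eye and 22.5 and 40.9 CPM in statocyst, against 3.28 and 7.15 CPM in rim cells. None of the 3 had an optic lobe read. All 3 were higher in rim cells than in either whole sucker library, where LOC106868675 had 4.99 and 6.99 CPM.

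The other run of 3 was less even. LOC106869633 had 287 CPM in eye and 378 CPM in statocyst, against 7.23 CPM in rim cells. LOC106869637 had 351 CPM in eye and 152 CPM in statocyst, against 4.47 CPM in rim cells, and LOC106869634 had 53.3 CPM in eye and 88.8 CPM in statocyst, against 4.09 CPM in rim cells. LOC106869637 thus leaned to the eye, at a log2 ratio of 1.20, and LOC106869633 to the statocyst, at -0.40, which made this pair the most different of the 10. With size factors the log2 ratio of LOC106869633 became -0.01, so that its lean depends on the scaling.

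LOC106876926, described above, adjoined LOC106878541, which had 474 CPM in eye and 568 CPM in statocyst, against 24.9 CPM in rim cells, 13.7 and 12.3 in the whole sucker libraries and 1 read in optic lobe. LOC106882069 had 53.1 CPM in eye and 52.9 CPM in statocyst, with 2.98 CPM in rim cells, 1.01 and 0.844 in the whole sucker libraries and no read in optic lobe, olfactory organ or mantle skin. Its neighbour LOC106883108 had 14.9 CPM in eye and 21.7 CPM in statocyst, against 1.35 CPM in rim cells. The last pair, LOC106867546 and LOC106867353, had 108 and 40.5 CPM in eye and 115 and 22.6 CPM in statocyst, against 9.18 and 4.31 CPM in rim cells. LOC106867546 kept 4.63 CPM or more in every library, whereas LOC106867353 had 0.186 CPM in optic lobe and 0.280 CPM in olfactory organ.

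**Figure D4:**
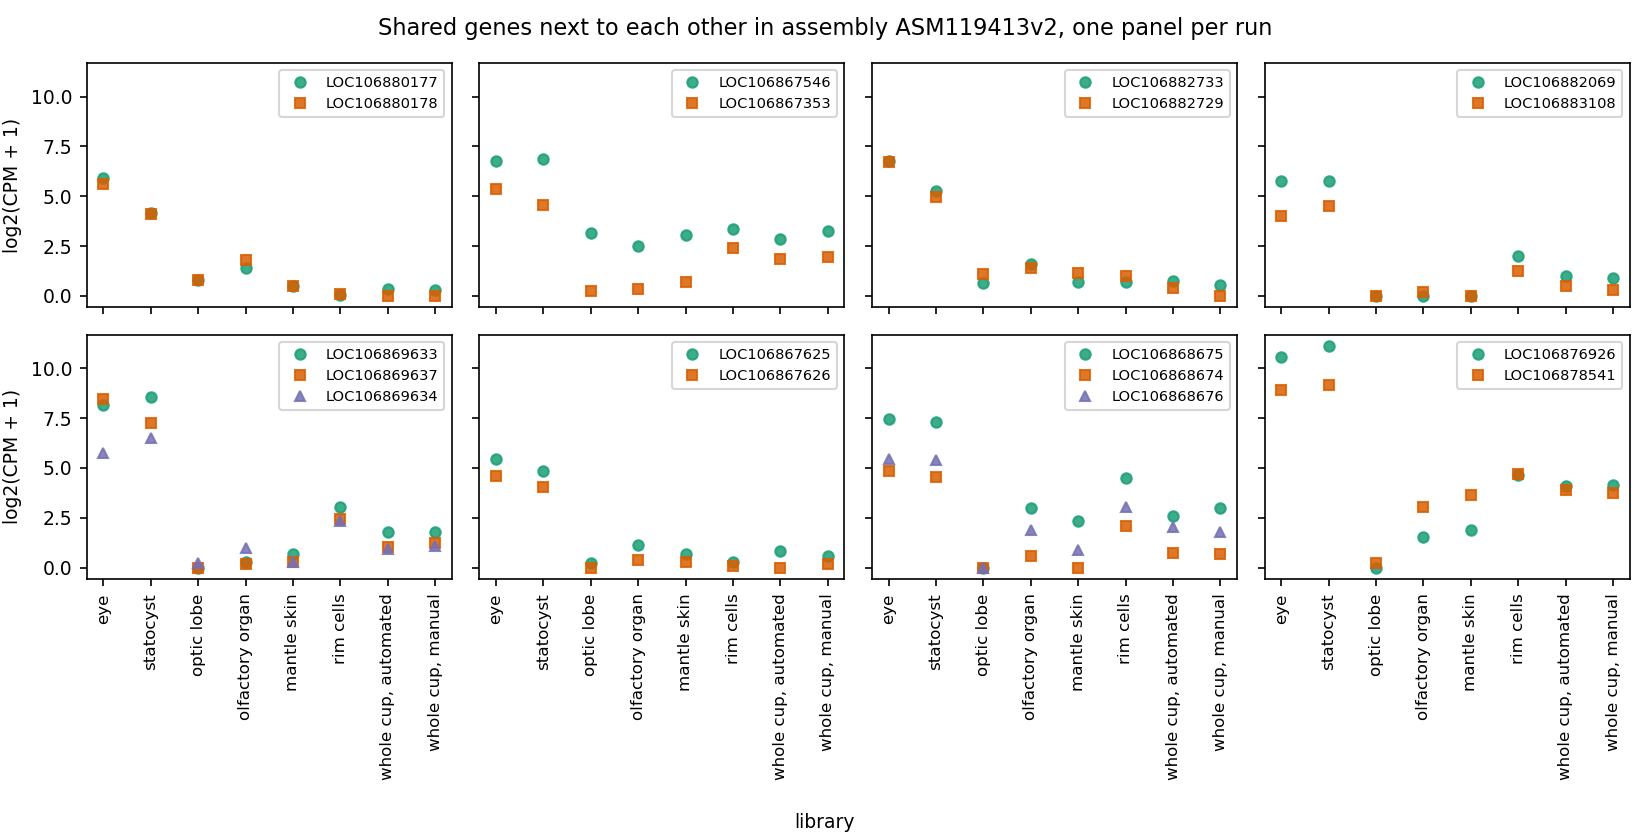
Levels of the 18 genes in the 8 runs of adjacent shared genes, 1 panel per run, as log2(CPM + 1) in each of the 8 libraries, with 1 symbol per gene. Genes of a run share the other tissue in which they are highest, rim cells in 5 runs and olfactory organ in 3.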

How the data were processed

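RNA of 7 tissues was sequenced as 8 libraries on 2 lanes each (16 samples). Per the submitters' processing notes, Trim Galore and kallisto were used. Not given in the sources used here are versions, build, annotation and the merging of lanes. The table deposited by the authors holds log2(CPM + 1), a unit read from the values: inverted, each column sums to 1000000, and 100% of values are whole multiples of 1 read within 0.01 reads. Reads were recovered from these steps; kallisto estimates need not be whole, so they may be rounded.

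Members were chosen with a pseudocount of 1 CPM, a floor of 10 CPM and a threshold of 4-fold, with whole sucker cup as the mean of its 2 libraries. The members and lists were chosen with earlier results of these data known. Lanes are not replicates and no test was made. Levels of OTX carry exact Poisson intervals, shares Wilson intervals, and ratios of reads (no pseudocount, whole sucker libraries pooled) exact Clopper-Pearson intervals. These, and floors, cover counting error and nothing else, since no molecular identifiers are stated. Genes named were OTX, the 10 with the widest margin, the 10 with the highest mean CPM, the 3 at each end of eye over statocyst, the 3 on each side of the threshold, adjacent members, and others where stated. Lists by gene name and promoter motifs were not applied: the reference table names 2 measured genes, and no sequences were used. The choice of members was tested on simulated data. Calculations used Python 3.11.15, pandas 2.3.3 and SciPy 1.17.1.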

Additional observations from a re-analysis of the deposited data

How the results depend on the processing

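The set kept all or nearly all of its genes without the automated or without the manual whole sucker library (157 to 159 genes, sharing 157 or 158 with the 158), and the median margin was then 2.83 to 2.85 log2 units. With 5 CPM as pseudocount, which lowers the ratios of genes with few reads, there were 105 genes, a median margin of 2.27 and an OTX margin of 2.11, and a pseudocount of 0.1 CPM a median margin of 3.17. A floor of 50 CPM left 87 genes, OTX not among them. By construction, 2-fold over the other tissues gave 374 genes, 8-fold 65, and a limit of 2-fold between eye and statocyst 94; OTX passed the first and not the last 2. Median-of-ratios size factors gave 135 genes, 123 of them in common and without OTX. Thinning all libraries to 4782744 reads gave 160 genes, 146 in common, and an OTX margin of 2.44; the cause was not tested. A lower counting limit of at least 4-fold left 144 of the 158. Without a demand on 1 tissue, tried after the data were seen, counts ran from 161 (whole sucker cup) to 210 (optic lobe). Without the member with the highest mean CPM the shares of reads were 2.46% in eye and 3.10% in statocyst. The motif shares in promoters were not run. No paired analysis was possible because replicate numbers are lanes of 1 library and no test was made. The shallow optic lobe and mantle skin libraries limit what a count of 0 can show there.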
